A study of Rattus norvegicus with 12 samples.

Results

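Intermediate filament genes were followed in the tibia of prepubertal female rats fed soy protein isolate (SPI), treated with 17β-estradiol (E2), or given both. The set held 7 genes: the neurofilament subunits Nefl, Nefm and Nefh, the related neuronal filaments Prph (peripherin) and Ina (α-internexin), and Nes (nestin) and Vim (vimentin), whose expression is not restricted to neurons. They were taken by name, as every probe set whose annotation gave a single symbol from this list, which returned 9 of the 31042 probe sets tested, and 7 of the 14217 genes with such a probe set. Nefl and Ina had 2 probe sets each and the other 5 genes 1 each, so that 7 probe sets stood for the neuronal filaments and 2 for Nes and Vim. Probe sets of 1 gene come from the same RNA and are not replicates. This list and the further gene lists were chosen with earlier results of these data known. The shares called below are therefore not independent of those results.

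A total of 12 Affymetrix rat genome arrays covered 4 groups of 3 pools, each pool with RNA of 2 to 3 Sprague-Dawley females at postnatal day 34, and the labels give treatment from postnatal day 21. Rats of the SPI group ate a diet with soy protein isolate as its protein, those of the E2 group ate the casein diet and received E2, those of the SPI+E2 group ate the SPI diet and received E2, and those of the CAS group ate the casein diet alone. E2 came from an osmotic pump under the skin, all dams had been fed casein, and marrow was aspirated before tibial RNA was taken. Because each array carried pooled RNA, a p-value here reflects how far pools, rather than individual rats, differ, and with 3 arrays a group that number sets the precision. In RNA of whole bone, fewer cells of a type and less RNA per cell cannot be told apart.

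Intermediate filaments are rope-like polymers that give a cell mechanical strength. In axons the light, medium and heavy neurofilament proteins copolymerise, with peripherin in peripheral neurons and α-internexin mainly in developing and central neurons, and their amount sets the calibre of large axons. Nestin marks neural and muscle progenitors and some endothelial cells, and vimentin is the filament of mesenchymal cells, including fibroblasts, endothelium and many leukocytes. Sensory and sympathetic axons reach periosteum, marrow and mineralised bone, whereas their cell bodies lie in ganglia outside it.

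The promoters of 4 of the 7 genes, Prph, Ina, Nes and Vim, were in the RefSeq table (build GRCr8; 250 bases before to 50 after the annotated start). Those of Prph, Ina and Vim are shown because these genes had the 3 different patterns described below. Capitals mark the TATA box letters TATAAA and the GC box letters GGGCGG, each searched on both strands.
Prph promoter, chr7:132097039-132097338, plus strand: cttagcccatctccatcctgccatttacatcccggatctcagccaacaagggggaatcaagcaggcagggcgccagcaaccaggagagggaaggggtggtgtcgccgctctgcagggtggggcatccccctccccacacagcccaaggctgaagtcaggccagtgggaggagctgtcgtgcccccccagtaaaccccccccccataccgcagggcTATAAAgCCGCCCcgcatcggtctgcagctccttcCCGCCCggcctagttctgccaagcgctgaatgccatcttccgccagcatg
Ina promoter, chr1:255837879-255838178, plus strand: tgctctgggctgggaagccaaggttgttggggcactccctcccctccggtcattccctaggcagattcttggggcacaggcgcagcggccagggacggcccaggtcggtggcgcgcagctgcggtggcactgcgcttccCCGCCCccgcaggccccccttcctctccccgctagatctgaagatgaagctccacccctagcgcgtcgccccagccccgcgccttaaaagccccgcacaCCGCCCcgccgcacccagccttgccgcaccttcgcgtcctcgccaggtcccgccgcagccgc
Vim promoter, chr17:81577011-81577310, plus strand: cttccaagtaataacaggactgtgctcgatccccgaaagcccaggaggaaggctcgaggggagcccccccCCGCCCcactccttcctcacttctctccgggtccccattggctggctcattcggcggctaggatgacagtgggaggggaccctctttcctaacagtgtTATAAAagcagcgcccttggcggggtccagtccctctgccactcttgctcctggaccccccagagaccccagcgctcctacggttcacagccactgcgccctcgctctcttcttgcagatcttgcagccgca
The Prph promoter held TATAAA 35 bases before the start and GC box letters 28 bases before it and at base 1 after it. Ina had GC box letters 111 and 12 bases before the start and no TATAAA, and Vim had TATAAA 82 bases and GC box letters 180 bases before the start. Among all 33469 promoters of this length, 14.2% held TATAAA and 33.1% held GGGCGG. The letters of a full estrogen response element, GGTCANNNTGACC, were in 0.0269% of promoters and in none of these 4, and its shorter part GGTCA, which overlaps it, was in 40.5% of promoters and in those of Ina and Nes. These matches describe letters and not binding. In the same annotation Nefl and Nefm lie on 1 chromosome with only 1 annotated feature between them, a pseudogene.

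The deposited values are log2 values that the authors centred on the median of each probe set over the 12 arrays. A value of 0 therefore lies midway between the sixth and seventh array in rank, no absolute level is held, and the presence of bone or nerve markers could not be read from levels. Array medians lay between -0.0042 and 0.0072. Across all probe sets the median SD within a group was 0.0957 log2 units in SPI, 0.0713 in E2, 0.084 in SPI+E2 and 0.0694 in CAS. The threshold for a call was an adjusted p of 0.05 from limma, with Benjamini-Hochberg adjustment across the whole array. Every adjusted p below is of this kind, with 3 arrays in each group, unless an alternative fit or an array left out is named. The comparisons with CAS share the same 3 CAS arrays.

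**Figure D1:**
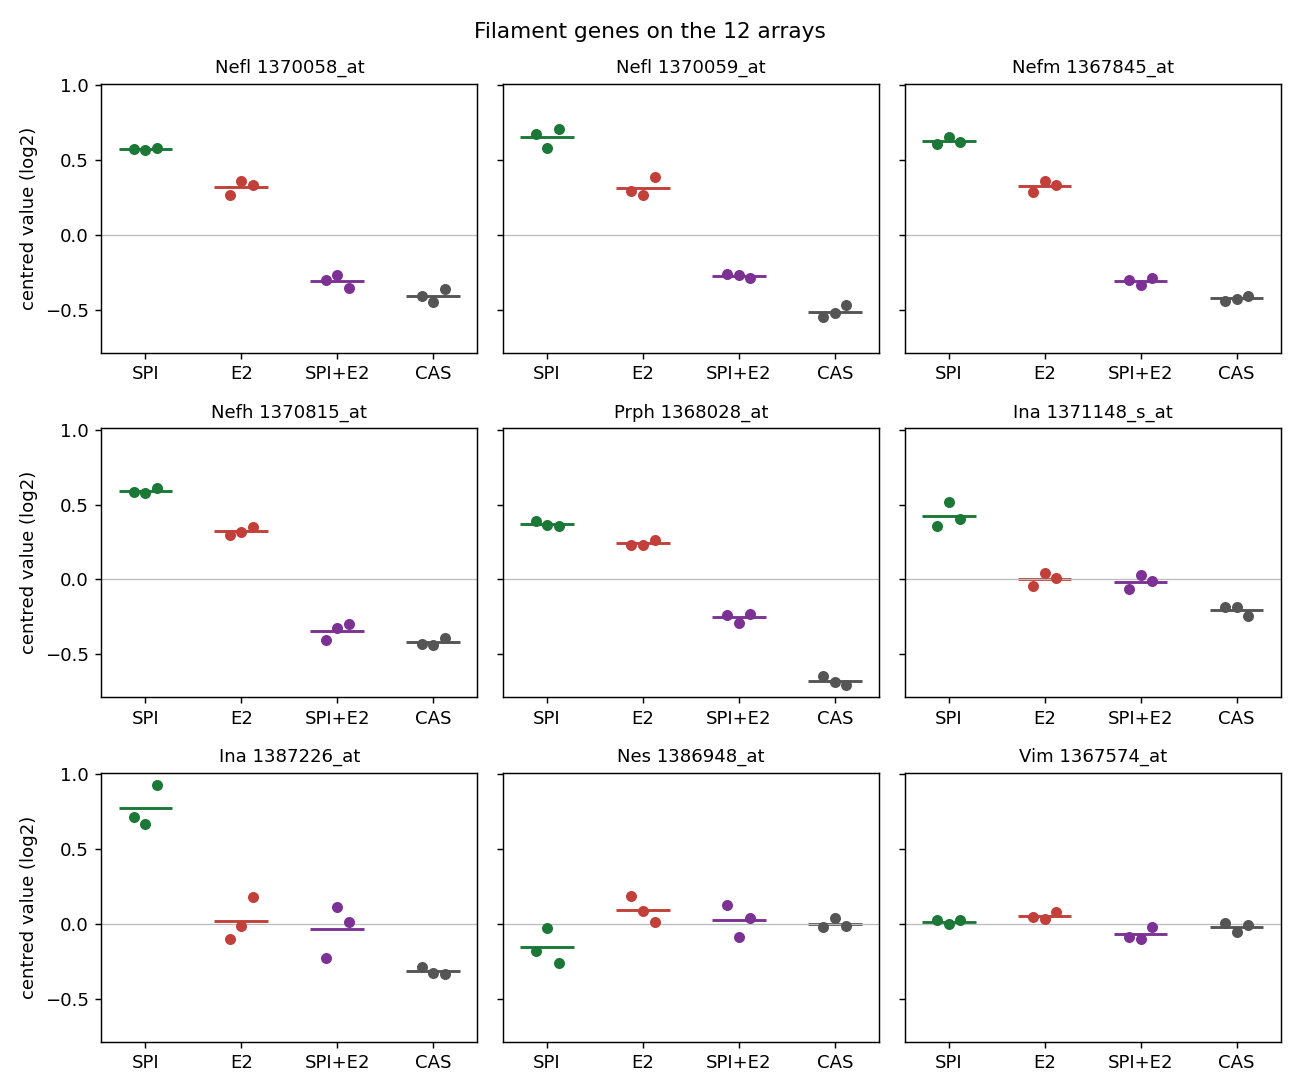
Centred value (log2, vertical axis) of each of the 9 filament probe sets on the 12 arrays, with a point for each pool and a line at the group mean, for SPI, E2, SPI+E2 and CAS from left to right. For Nefl, Nefm, Nefh and Prph the SPI and E2 arrays lie above 0 and the SPI+E2 and CAS arrays below it, whereas all Vim values lie between -0.10 and 0.08.

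The 3 neurofilament subunits followed one pattern, highest with SPI, next with E2, and low with SPI+E2 and CAS. Nefm, the medium subunit, read 0.61, 0.66 and 0.62 in the SPI pools, 0.29, 0.36 and 0.33 in the E2 pools, -0.30, -0.33 and -0.29 in the SPI+E2 pools, and -0.44, -0.43 and -0.40 in the CAS pools. The 4 groups did not overlap. Here and below, the share of all probe sets whose groups separate in this way was not counted. Nefh, the heavy subunit, read 0.58, 0.58 and 0.61 with SPI, 0.30, 0.31 and 0.35 with E2, -0.41, -0.32 and -0.30 with SPI+E2, and -0.43, -0.44 and -0.39 with CAS. Its SPI and E2 arrays stood clear of each other and of the rest, and those of SPI+E2 and CAS overlapped.

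Nefl, the light subunit that neurofilaments need for assembly, was read by 2 probe sets. The first, 1370058_at, gave 0.57, 0.57 and 0.58 in SPI, 0.27, 0.36 and 0.33 in E2, -0.30, -0.27 and -0.35 in SPI+E2, and -0.41, -0.45 and -0.36 in CAS. The second, 1370059_at, gave 0.67, 0.58 and 0.71 in SPI, 0.29, 0.26 and 0.38 in E2, -0.26, -0.27 and -0.29 in SPI+E2, and -0.55, -0.52 and -0.47 in CAS. Both probe sets separated all 4 groups, and the gap between SPI+E2 and CAS was wider in the second.

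Prph, the filament protein typical of peripheral sensory and autonomic neurons, kept more of its rise than the neurofilament subunits did when SPI and E2 were combined. Its values were 0.39, 0.36 and 0.36 with SPI, 0.23, 0.23 and 0.26 with E2, -0.24, -0.29 and -0.23 with SPI+E2, and -0.65, -0.69 and -0.70 with CAS. The groups did not overlap, and the step between SPI+E2 and CAS was larger than for any neurofilament subunit. The change with both was 10.5% to 29.3% of the E2 change for the neurofilament subunits and 46.2% for Prph. It was 90.6% and 83.4% for the Ina probe sets, whose E2 changes were only 0.21 and 0.34. These shares were not tested against each other.

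Ina, which assembles with the neurofilament subunits, was raised mainly by SPI. Probe set 1387226_at gave 0.72, 0.67 and 0.93 with SPI, -0.10, -0.011 and 0.18 with E2, -0.23, 0.11 and 0.011 with SPI+E2, and -0.28, -0.33 and -0.33 with CAS. Probe set 1371148_s_at, whose suffix marks probes shared by more than 1 transcript, gave 0.36, 0.52 and 0.40 with SPI, -0.042, 0.042 and 0.011 with E2, -0.066, 0.030 and -0.011 with SPI+E2, and -0.19, -0.19 and -0.24 with CAS. In both, the SPI arrays were above and the CAS arrays below all others, while E2 and SPI+E2 overlapped. The SD between pools in 1387226_at was above that of every other neuronal filament probe set in SPI, E2 and SPI+E2 and not in CAS, at 0.138 in SPI, 0.142 in E2, 0.174 in SPI+E2 and 0.0275 in CAS.

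Nes and Vim did not share these steps. Nes read -0.18, -0.027 and -0.26 in SPI, 0.19, 0.084 and 0.015 in E2, 0.13, -0.087 and 0.041 in SPI+E2, and -0.023, 0.038 and -0.015 in CAS. Its SPI arrays were the lowest on average and overlapped those of SPI+E2, and the E2, SPI+E2 and CAS arrays overlapped. Vim read 0.023, -0.0030 and 0.028 in SPI, 0.044, 0.032 and 0.076 in E2, -0.085, -0.099 and -0.018 in SPI+E2, and 0.0030, -0.053 and -0.0047 in CAS. The E2 arrays were the highest, and those of SPI and CAS overlapped.

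With the SPI diet alone all 7 neuronal filament probe sets were higher than in CAS and neither Nes nor Vim passed, where over all probe sets 8.25% were higher and 9.07% lower. The median log2 change of the neuronal filaments was 1.05, against 0.0059 for all probe sets. Nefm rose by 1.05 log2 units (SE 0.0430, adjusted p = 8.72e-08), a 2.07-fold rise, and Prph by 1.05 (SE 0.0427, adjusted p = 8.72e-08). Nefh rose by 1.01 (SE 0.0458, adjusted p = 1.71e-07), and the Nefl probe sets by 0.98 (SE 0.0473, adjusted p = 2.23e-07) and 1.17 (SE 0.0520, adjusted p = 1.71e-07). Ina rose by 1.09 (SE 0.098, adjusted p = 1.65e-05) in 1387226_at and by 0.63 (SE 0.0540, adjusted p = 1.09e-05) in 1371148_s_at, so that its probe sets agreed less closely than those of Nefl. Nes changed by -0.16 (95% interval -0.32 to 0.0051, adjusted p = 0.179) and Vim by 0.034 (95% interval -0.062 to 0.13, adjusted p = 0.654).

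With E2 alone 6 of the 7 neuronal filament probe sets were higher than in CAS, where 4.99% of all probe sets were higher and 4.36% lower. The median change was 0.74 log2 units, against -0.0067 for all probe sets. Prph led, with a rise of 0.92 (SE 0.0427, adjusted p = 2.89e-07), followed by Nefl at 0.83 (SE 0.0520, adjusted p = 1.76e-06) and 0.73 (SE 0.0473, adjusted p = 2.17e-06), Nefm at 0.75 (SE 0.0430, adjusted p = 9.01e-07) and Nefh at 0.74 (SE 0.0458, adjusted p = 1.57e-06). Ina was near the threshold: 1371148_s_at rose by 0.21 (SE 0.0540, adjusted p = 0.0303) and 1387226_at changed by 0.34 (SE 0.098, adjusted p = 0.0527). The call of 1371148_s_at was lost without any 1 of the 3 CAS or 3 E2 arrays (adjusted p between 0.0501 and 0.115). The change of 1387226_at passed after quantile normalization (adjusted p = 0.0325) and with array weights (adjusted p = 0.0339), and not with median centring or robust variances. In the limma fit of the mean of each gene, Ina rose by 0.27 with E2 (adjusted p = 0.0103). Nes changed by 0.095 (95% interval -0.067 to 0.26, adjusted p = 0.557) and Vim by 0.069 (95% interval -0.027 to 0.17, adjusted p = 0.446).

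With SPI and E2 together 2 of the 7 passed, 1 probe set of Nefl and that of Prph, both higher than in CAS, where 4.14% of all probe sets were higher and 4.33% lower. The median change was 0.19, against 0.019 for all probe sets. Prph rose by 0.43 (SE 0.0427, adjusted p = 0.000156), a 1.34-fold rise. Nefl rose by 0.24 in 1370059_at (SE 0.0520, adjusted p = 0.0143, and 0.0625 without the CAS 1 array) and changed by 0.099 in 1370058_at (SE 0.0473, adjusted p = 0.235). The changes of Nefm and Nefh, 0.12 (SE 0.0430, adjusted p = 0.125) and 0.078 (SE 0.0458, adjusted p = 0.341), did not pass. Ina changed by 0.19 in 1371148_s_at (adjusted p = 0.0518) and 0.28 in 1387226_at (adjusted p = 0.103). In the limma fit of the mean of each gene, its rise of 0.24 passed (adjusted p = 0.028). Nes changed by 0.027 (95% interval -0.14 to 0.19, adjusted p = 0.869) and Vim by -0.049 (95% interval -0.15 to 0.048, adjusted p = 0.55).

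**Figure D2:**
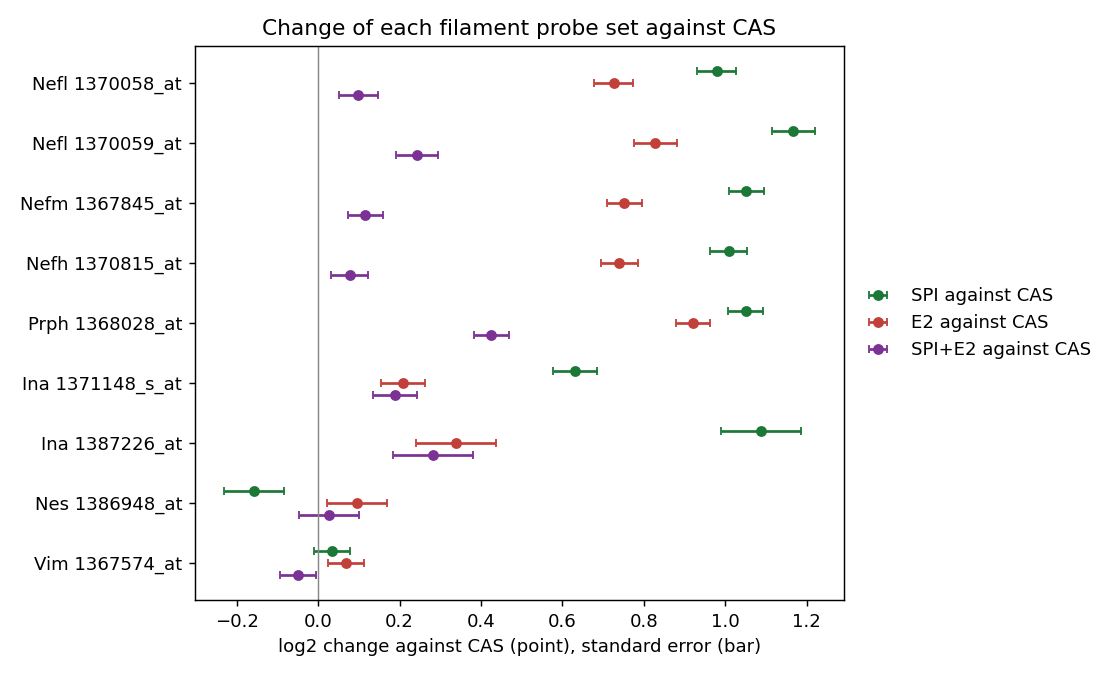
Log2 change against CAS (horizontal axis; points, with the standard error as a bar) of each filament probe set for SPI, E2 and SPI+E2. The neuronal filaments rose by 0.63 to 1.17 with SPI and were between 0.21 and 0.92 with E2 and between 0.078 and 0.43 with SPI+E2, while Nes lies between -0.16 and 0.095 and Vim between -0.049 and 0.069.

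Members differed in how the E2 change compared with the SPI change. In the neurofilament subunits the change with E2 was 70.9% to 74.1% of that with SPI, in Prph it was 87.7%, and in the Ina probe sets it was 33.1% and 31.1%; these shares were not tested against each other. Tested directly, SPI exceeded E2 in 6 of the 7 neuronal probe sets, where 7.98% of all probe sets were higher and 8.75% lower. The difference was 0.75 log2 units (SE 0.098, adjusted p = 0.000359) and 0.42 (SE 0.0540, adjusted p = 0.000316) for Ina. It was 0.30 (SE 0.0430, adjusted p = 0.000674) for Nefm, 0.27 (SE 0.0458, adjusted p = 0.00202) for Nefh, and 0.34 (SE 0.0520, adjusted p = 0.00102) and 0.25 (SE 0.0473, adjusted p = 0.00354) for Nefl. For Prph it was 0.13 (95% interval 0.036 to 0.22, adjusted p = 0.0592) and did not pass. It passed in the limma fit of the mean of each gene (adjusted p = 0.0219) and with an unmoderated ANOVA variance (adjusted p = 0.00397). For Prph that gene mean is the same probe set with the same change, adjusted over 14217 genes in place of 31042 probe sets. After quantile normalization between arrays the differences of Nefl, Nefm and Nefh were 0.076 to 0.15 and none of these 4 probe sets passed (adjusted p between 0.0599 and 0.399), while those of Ina did. The Prph difference was then 0.020 (adjusted p = 0.814).

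Nes was lower with SPI than with E2, by -0.25 log2 units (SE 0.0741, adjusted p = 0.0372). This call was lost without any 1 of 7 arrays, CAS 1, CAS 2, CAS 3, E2 1, E2 2, SPI 1 and SPI 3 (adjusted p between 0.0501 and 0.137). It was also lost in the fit of only the groups compared (adjusted p = 0.0882) and with an unmoderated ANOVA variance (adjusted p = 0.0605). The call was kept after quantile normalization (adjusted p = 0.0437). Vim differed by -0.035 (95% interval -0.13 to 0.062, adjusted p = 0.639).

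Adding E2 on the SPI diet lowered all 7 neuronal filament probe sets, where 5.56% of all probe sets were higher and 5.83% lower in SPI+E2 than in SPI. Nefm fell by 0.94 log2 units (SE 0.0430, adjusted p = 2.21e-07), Nefh by 0.93 (SE 0.0458, adjusted p = 2.84e-07), Nefl by 0.92 (SE 0.0520, adjusted p = 6.82e-07) and 0.88 (SE 0.0473, adjusted p = 4.54e-07), and Prph by 0.62 (SE 0.0427, adjusted p = 3.25e-06). Ina fell by 0.81 (SE 0.098, adjusted p = 0.00022) in 1387226_at, and it fell by 0.44 (SE 0.0540, adjusted p = 0.000229) in 1371148_s_at. Nes, at 0.18 (95% interval 0.022 to 0.35, adjusted p = 0.147), and Vim, at -0.083 (95% interval -0.18 to 0.013, adjusted p = 0.279), did not pass.

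Adding SPI under E2 lowered the neurofilament subunits and Prph and left Ina without a call, 5 of the 7 probe sets being lower in SPI+E2 than in E2, where 4.92% of all probe sets were higher and 5.53% lower. Nefh fell by 0.66 (SE 0.0458, adjusted p = 8.52e-06), Nefm by 0.64 (SE 0.0430, adjusted p = 7.09e-06), Nefl by 0.63 (SE 0.0473, adjusted p = 1.59e-05) and 0.59 (SE 0.0520, adjusted p = 5.24e-05), and Prph by 0.50 (SE 0.0427, adjusted p = 4.14e-05). The Ina differences were -0.020 (SE 0.0540, adjusted p = 0.855) and -0.056 (SE 0.098, adjusted p = 0.763). Nes differed by -0.069 (95% interval -0.23 to 0.093, adjusted p = 0.608) and Vim by -0.12 (95% interval -0.21 to -0.022, adjusted p = 0.117).

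The change with SPI therefore had opposite signs under E2 and on the casein diet for Nefl, Nefm, Nefh and Prph. The interaction, which is the SPI change under E2 minus the SPI change on casein, passed for all 7 neuronal probe sets and was negative in each, where 4.17% of all probe sets had a positive and 5.75% a negative interaction. It was -1.69 log2 units for Nefm (SE 0.0609, adjusted p = 2.71e-08), -1.67 for Nefh (SE 0.0647, adjusted p = 2.91e-08) and -1.55 for Prph (SE 0.0603, adjusted p = 2.91e-08). For Nefl it was -1.61 (SE 0.0669, adjusted p = 4.25e-08) and -1.75 (SE 0.0736, adjusted p = 4.43e-08), and for Ina -1.14 (SE 0.139, adjusted p = 0.000183) and -0.65 (SE 0.0764, adjusted p = 0.000141). Put another way, the separate changes of Nefm with SPI and E2 sum to 1.80, against a measured 0.12 with both; for Prph they sum to 1.97, against 0.43. The interaction of Nes was 0.088 (adjusted p = 0.705) and that of Vim -0.15 (adjusted p = 0.174).

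**Figure D3:**
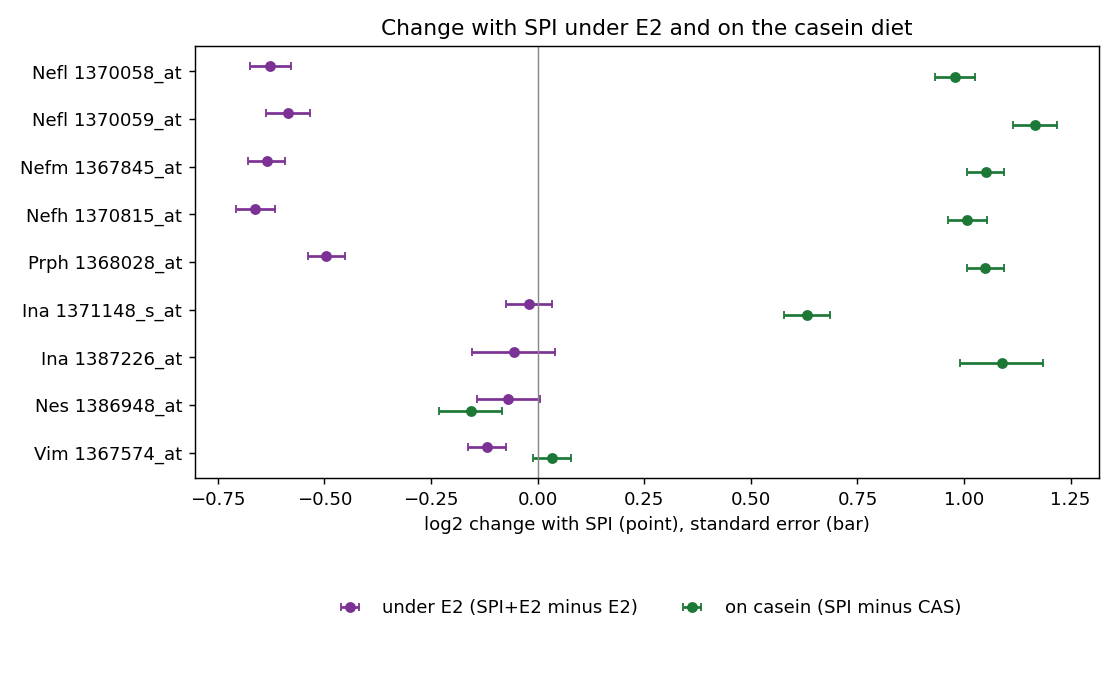
Log2 change with SPI (horizontal axis; points, with the standard error as a bar) under E2, as SPI+E2 minus E2, and on casein, as SPI minus CAS, for each filament probe set. Nefl, Nefm, Nefh and Prph lie between -0.66 and -0.50 under E2 and between 0.98 and 1.17 on casein, and both Ina probe sets are near 0 under E2.

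Other filament genes did not move as the neuronal ones did. A list of 17 further intermediate filament genes (keratins, lamins, desmin, syncoilin, synemin, beaded filament genes and Gfap) had 23 probe sets, of which 1 was higher and 8 lower with SPI, 1 higher and 4 lower with E2, and 1 higher and 3 lower with SPI+E2, each against CAS. Over all probe sets 8.25%, 4.99% and 4.14% were higher with SPI, E2 and SPI+E2, and 9.07%, 4.36% and 4.33% were lower. The median change of the list was -0.13, -0.059 and -0.071. Gfap, the filament of astrocytes and of non-myelinating Schwann cells, was the 1 that rose with SPI, by 0.76 (SE 0.0625, adjusted p = 8.4e-06), and it fell with E2 by 1.13 (SE 0.0625, adjusted p = 7.57e-07). Tested directly it was higher with SPI than with E2 by 1.89 log2 units (adjusted p = 2e-08).

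Genes that serve neurofilaments were called more sparsely. Of 31 probe sets for 14 genes of filament linkers, turnover, kinases and transport motors, 9 were higher and 0 lower with SPI, 9 higher and 0 lower with E2, and 2 higher and 0 lower with SPI+E2 against CAS, with median changes of 0.13, 0.11 and 0.035. Over all probe sets the shares that were higher were 8.25%, 4.99% and 4.14%, and the 2 of 31 with SPI+E2 are near that background. The kinesin heavy chain Kif5a, a motor that carries neurofilaments along axons, rose by 0.95 with SPI (SE 0.077, adjusted p = 7.57e-06), by 0.64 with E2 (adjusted p = 0.000194) and by 0.32 with SPI+E2 (adjusted p = 0.0254) in 1373187_at, 1 of 3 probe sets. The other 2 changed by 0.43 (adjusted p = 0.00132) and 0.33 (adjusted p = 0.0413) with SPI, by 0.38 (adjusted p = 0.00367) and 0.11 (adjusted p = 0.654) with E2, and by 0.084 and 0.063 with SPI+E2, where neither passed. Kif5c, a related motor, rose by 0.86 with SPI (adjusted p = 9.09e-06) and 0.48 with E2 (adjusted p = 0.000991) in 1 of 3 probe sets, whereas the other 2 changed by 0.22 (adjusted p = 0.0246) and -0.079 (adjusted p = 0.573) with SPI and did not pass with E2. The light chain Klc1 rose by 0.70 (adjusted p = 7.85e-07), 0.41 (adjusted p = 6.81e-05) and 0.17 (adjusted p = 0.0317) with SPI, E2 and SPI+E2 in 1370886_a_at, and its other 3 probe sets passed in none of these comparisons.

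Of 31 probe sets for 15 other genes of the axon cytoskeleton, 21 were higher and 1 lower with SPI, 19 higher and 1 lower with E2, and 10 higher and 1 lower with SPI+E2, with medians of 0.38, 0.33 and 0.13. Among all probe sets 8.25%, 4.99% and 4.14% were higher, and 9.07%, 4.36% and 4.33% lower. Map2, a microtubule protein of dendrites, rose by 1.22 with SPI (SE 0.0961, adjusted p = 5.73e-06) in 1388152_at, and its other probe set changed by 0.22 (adjusted p = 0.205). Stmn2, which destabilises microtubules in outgrowing neurites, had an interaction of -1.63 (adjusted p = 2.91e-08) and -1.42 (adjusted p = 1.47e-07) in its 2 probe sets, and Stmn3 one of -1.58 (adjusted p = 1.45e-07). The 5 genes whose probe set lay closest to the mean of the neuronal filaments over the 12 arrays, by root-mean-square difference in log2 units, were Sult4a1 (0.0516), Ngfr (0.0526), Snap91 (0.0634), Fez1 (0.0652) and Gabbr2 (0.0706). Ngfr, a neurotrophin receptor also on the Schwann cell list, rose by 1.02 with SPI and 0.75 with E2 and stood 0.23 above CAS with SPI+E2; Snap91 encodes a synaptic clathrin adaptor and Gabbr2 a subunit of the GABA-B receptor. On the same measure, which includes each of them in the mean, the members themselves stood at 0.0616 to 0.0777 for the neurofilament subunits, 0.152 for Prph, 0.22 and 0.217 for Ina, 0.371 for Vim and 0.459 for Nes.

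Markers of nerve moved with the neuronal filaments, and their part in the result was not tested. The mean of the 11 neuron marker genes was 0.36 in each SPI pool and lay between 0.15 and 0.19 in E2, -0.21 and -0.14 in SPI+E2, and -0.45 and -0.41 in CAS, beside 0.55 to 0.58, 0.21 to 0.28, -0.28 to -0.23 and -0.46 to -0.44 for the mean of the 5 neuronal filament genes. Against CAS, SPI raised 12 of 16 neuron probe sets, E2 raised 11 and SPI+E2 raised 8, and 0 were lower in each. Over all probe sets 8.25%, 4.99% and 4.14% were higher in these comparisons, and 9.07%, 4.36% and 4.33% lower. Tubb3, Stmn2, Uchl1 and Gap43 are on this list and on that of the axon cytoskeleton. Sensory neuron genes (10 measured, 16 probe sets) had 13 higher in SPI, 13 higher in E2 and 2 higher in SPI+E2, and their mean lay between 0.30 and 0.32 in SPI, 0.28 and 0.31 in E2, -0.25 and -0.23 in SPI+E2, and -0.37 and -0.36 in CAS. Schwann cell genes (8 measured, 10 probe sets) had 7, 8 and 1 higher, with 1 lower in SPI+E2, and means between 0.37 and 0.41 in SPI, 0.32 and 0.35 in E2, -0.32 and -0.26 in SPI+E2, and -0.34 and -0.32 in CAS.

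Sympathetic neuron genes took another course, with 2 of 12 probe sets higher and 1 lower with SPI, 0 higher and 1 lower with E2, and 9 higher and 0 lower with SPI+E2 against CAS. The shares of all probe sets were 8.25%, 4.99% and 4.14% higher and 9.07%, 4.36% and 4.33% lower. Their mean lay between -0.069 and 0.15 in SPI, -0.27 and -0.038 in E2, 0.90 and 0.99 in SPI+E2, and -0.15 and -0.059 in CAS. Prph is expressed in sympathetic as well as sensory neurons, and whether the rise of Prph in SPI+E2 goes with these genes was not tested. Central glia genes (9 measured, 17 probe sets) had 7 higher and 0 lower with SPI, 0 higher and 5 lower with E2, and 0 called with SPI+E2 by limma (5 at an unadjusted p under 0.05).

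Marker lists of cells in which Vim and Nes are commonly found were also counted, and their part in the values of these genes was not tested. With SPI, E2 and SPI+E2, 8.25%, 4.99% and 4.14% of all probe sets were higher than in CAS, and 9.07%, 4.36% and 4.33% lower. Counts in lists this short were not tested against these shares. Against CAS the 14 fibroblast and stroma probe sets had 4 higher and 2 lower with SPI, 2 higher and 0 lower with E2, and 2 higher and 3 lower with SPI+E2, with medians of -0.014, 0.034 and -0.063. Those higher with E2 were the Thy1 probe sets, at 0.35 and 0.24, and those higher with SPI were of Thy1 and Pdgfrb. The Thy1 interaction was -0.79 and -0.73, of the same sign as in the neuronal filaments. The 10 endothelial probe sets had 0, 0 and 1 higher and 2, 1 and 0 lower with SPI, E2 and SPI+E2, with medians of -0.14, -0.093 and 0.015. Of the 17 skeletal muscle probe sets, 0 were higher and 8 lower with SPI, 1 was higher and 0 lower with E2, and 2 were higher and 1 lower with SPI+E2, with medians of -0.13, 0.016 and 0.0093. The endothelial and muscle medians with SPI lay below the lower quartile of all single probe sets, -0.10. The median of a list and a quartile of single probe sets are unlike measures. The Nes change with SPI was -0.16 and did not pass. With E2 the endothelial median of -0.093 was also below the lower quartile, -0.086, and the muscle median was not. Nes changed by 0.095 with E2 and did not pass, and whether it follows these lists was not tested. Of the osteoblast and osteocyte genes, SPI lowered 2 of 8 probe sets, E2 lowered 0 and SPI+E2 lowered 1, and 0 were higher in each. Macrophage genes had 6 probe sets, of which 1 was higher with SPI+E2 and none passed with SPI (2 at an unadjusted p under 0.05) or E2 (0).

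**Figure D4:**
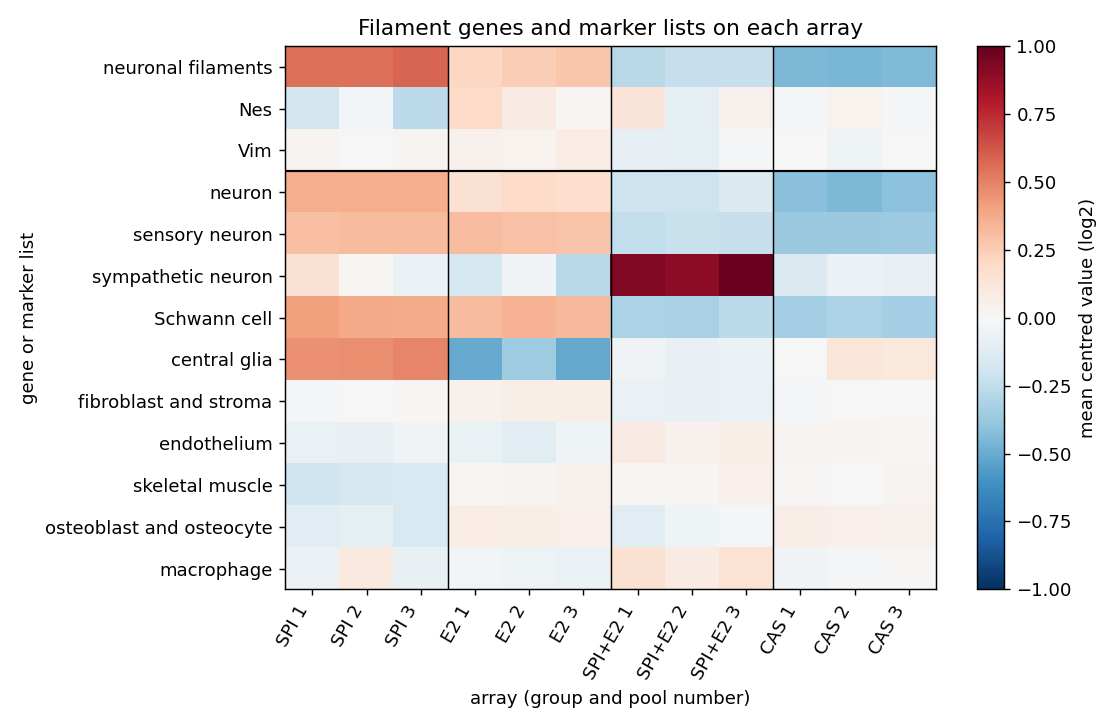
Mean centred value (log2, colour) of the neuronal filament genes, Nes, Vim and 10 marker lists (rows) on each of the 12 arrays (columns, grouped as SPI, E2, SPI+E2 and CAS). The neuronal filament, neuron, sensory neuron and Schwann cell rows are high in SPI and E2, the sympathetic row is high in SPI+E2, between 0.90 and 0.99, Nes ranges from -0.26 in SPI to 0.19 in E2, and Vim lies between -0.10 and 0.08.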

How the data were processed

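RNA of pooled tibiae was measured on 12 arrays, 3 per group, with groups taken from the sample titles. The authors made log2 values with GCOS and RMA and then scaled them by chip and by gene in GeneSpring, and the deposited table holds the result. That these are still in base 2 is taken from the methods. After removal of 57 control probe sets from 31099, all 31042 others were tested, of which 20826 carried 1 gene symbol, 436 several and 9780 none. The files gave no scan date or batch.

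Group means were fitted with limma 3.58.1 in R 4.3.3 over the 4 groups, with Benjamini-Hochberg adjustment across the array, in 7 comparisons. Intervals are at 95% and unadjusted. The fit was tested on simulated data. Every member probe set was named, with at most 3 genes per list and comparison with the largest change past the test, and the 5 genes closest in pattern. Members and lists were chosen with earlier results of these data known. Promoters are from RefSeq (GRCr8). Alternatives covered the replicate block, a fit of only the groups compared, quantile normalization, median centring, robust variances, weights for arrays, the mean of each gene, single-symbol probe sets, an unmoderated ANOVA variance, unadjusted p, a 1.5-fold threshold, natural logarithms and leaving out each array.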

Additional observations from a re-analysis of the deposited data

Results flagged for a closer look

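The change with SPI differed between rats with E2 and rats without it for every neuronal filament probe set, by the interaction term of limma. Its log2 value, the SPI change under E2 minus the SPI change on casein, was -1.61 and -1.75 for Nefl, -1.69 for Nefm, -1.67 for Nefh, -1.55 for Prph, and -0.65 and -1.14 for Ina, with adjusted p-values of 0.000183 or less and 3 arrays in each group. For Nefl, Nefm, Nefh and Prph the SPI change passed the test in both settings, negative under E2 and positive on casein. For Ina the SPI+E2 and E2 arrays overlapped, and its SPI change passed the test on casein and not under E2.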

How the results depend on the processing

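The counts of filament probe sets called stayed within 1.5 times of those given for SPI against CAS, E2 against CAS, SPI+E2 against SPI, SPI+E2 against E2 and the interaction under every alternative run. For SPI+E2 against CAS, 2 were called, against 4 with the ANOVA variance, 5 at an unadjusted p, 0 at 1.5-fold, and 1 to 3 with 1 array left out (1 without CAS 1). For SPI against E2, 7 were called, against 3 after quantile normalization and 1 at 1.5-fold. The replicate block gave 7, 7, 3, 7, 7, 5 and 7 calls over the 7 comparisons, with no call lost and the E2 change of Ina 1387226_at (adjusted p = 0.0391) and the SPI+E2 change of Ina 1371148_s_at (adjusted p = 0.0432) gained. The labels number the pools and do not say whether equal numbers share a litter or a batch, which was not tested. Of 18 same-numbered pairs 4 correlated above 0.1 in their deviations, the highest at 0.244. Of the 12 arrays 4 correlated best with their own number. No change that passed the test, as given or under an alternative, changed sign. Read as natural logarithms, the 2.07-fold rise of Nefm with SPI would be 2.86-fold. Over all probe sets, a fit of only the groups compared gave 3581, 3190 and 1662 calls for SPI against CAS, SPI against E2 and SPI+E2 against SPI, in place of 5376, 5195 and 3537; with 1 array left out, SPI+E2 against CAS gave 1408 to 3183 in place of 2631, SPI+E2 against E2 1852 to 3791 in place of 3245 and SPI against E2 3415 to 5359. Unadjusted p gave 6315 to 9537 over the 7 comparisons and the 1.5-fold threshold 145 to 1268, in place of 2631 to 5376. A fit of only the groups compared has no value for the interaction, which needs all 4.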

Other observations

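Among the 23 probe sets of the further intermediate filament genes, the 8 lower with SPI were of keratin, lamin, desmin, synemin, syncoilin and beaded filament genes. Fewer were called with E2 or SPI+E2 against CAS. Krt19, a keratin of simple epithelia, was higher with SPI+E2 than with CAS by 0.79 log2 units (SE 0.119, limma adjusted p = 0.00199) and higher than with SPI by 0.95 (adjusted p = 0.000283). The nuclear lamin Lmnb1 fell by 0.47 with E2 (SE 0.0526, adjusted p = 0.000113) and by 0.32 with SPI+E2 (adjusted p = 0.00342) against CAS in 1373897_at. Of its other 2 probe sets, 1 passed with E2, at -0.37 (adjusted p = 0.00705), and neither passed with SPI+E2. With SPI, Lmnb1 passed only in 1368811_at, at -0.28 (adjusted p = 0.0211). Lmnb2 fell by 0.32 with E2 (adjusted p = 0.00922) and fell by 0.30 with SPI+E2 (adjusted p = 0.0186). Des, the filament of muscle, changed by -0.32 with SPI (limma SE 0.0426, adjusted p = 0.00031), and the muscle filament partner Sync was lower with SPI than with E2 by -0.45 (SE 0.0531, adjusted p = 0.000199) in 1 probe set and differed by 0.089 (adjusted p = 0.522) in the other.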
